A study of Mus musculus with 6 samples.

Results

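The acrosome and sperm-egg fusion genes are a list of 38 mouse genes whose products fill, enclose, build or anchor the acrosome, or act where sperm and egg meet. They were taken from the authors' deposited Cuffdiff table by gene symbol. Of the 38 symbols, 37 had a row, out of 55331 genes in all; the symbol Hrb had none. All 37 had test status OK, among 22048 tested genes, so none was lost to a filter on low values.

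The table compares whole testes of Ptbp1_cKO and control mice aged 35 days, with 3 libraries each and a strain given as mixed. Ptbp1_cKO mice were Ptbp1fl/fl; Amh-Cre+/-, so that both Ptbp1 alleles were floxed and a Cre recombinase was expressed from the Amh promoter, which is active in Sertoli cells, the supporting somatic cells of the seminiferous tubule. Control mice were Ptbp1fl/fl without Cre; their titles call them WT, but they carried the same floxed alleles. The study asked what PTBP1, an RNA-binding protein that regulates splicing, does in Sertoli cells. Most of the genes described here are known as germ cell genes, while Amh-Cre acts in Sertoli cells. Gopc and Pick1 are also expressed in other cell types, and whole testis does not show the cell of origin. With no mice that had the Cre alone, effects of the deletion and of the transgene cannot be told apart. Whether the libraries of a group are separate animals is not stated, so any spread between libraries behind the p-values may be technical. Ptbp1 itself had 46.7 FPKM in Ptbp1_cKO and 49.97 FPKM in control (log2 fold change -0.10, q = 0.999 in the authors' deposited table); other testis cells also express it, so this level does not check the labels.

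The acrosome is a cap-shaped vesicle that grows from the Golgi apparatus over the nucleus of the round spermatid. It holds enzymes and binding proteins that are released or exposed when sperm reach the egg coat, and the membrane it leaves behind carries the proteins through which sperm bind and fuse with the egg. Its formation depends on vesicle traffic and on a protein layer, the perinuclear theca, that fixes it to the nuclear envelope. Many of its genes are transcribed in spermatocytes and round spermatids and are activated by CREM, a factor that binds the cAMP response element (CRE).

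RefSeq promoter windows (GRCm38.p6) were at hand for 32 of the 37 genes. A pair of stretches is shown first because they belong to the gene that passed the test, Cylc1, and to the gene just outside it, Spam1. Each is the 150 bases that end just before the annotated start, at chrX:111110268-111110417 and chr6:24791038-24791187, both on the plus strand. Capitals mark TGATGTCA, called CRE-like here, which departs from the CRE by C4T, counted from 1 at its 5′ end.
Cylc1: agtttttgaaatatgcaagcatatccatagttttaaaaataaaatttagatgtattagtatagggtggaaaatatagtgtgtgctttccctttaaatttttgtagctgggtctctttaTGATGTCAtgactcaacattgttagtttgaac
Spam1: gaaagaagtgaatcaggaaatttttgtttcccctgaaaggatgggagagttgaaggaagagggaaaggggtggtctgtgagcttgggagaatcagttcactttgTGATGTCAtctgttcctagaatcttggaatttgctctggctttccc

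A further 5 genes held the CRE-like letters before the RefSeq start. These stretches of 30 bases are shown so that their flanks can be compared. They lie at chr8:12572991-12573020 (plus strand), chr6:24857901-24857930 (plus), chr11:103638908-103638937 (minus), chr2:153871283-153871312 (minus) and chr14:32833932-32833961 (plus), in the order printed, and the match of Fam170b is on the opposite strand.
Spaca7: gtgccctgtggTGATGTCAcaggtccccca
Hyal5: tgtctactttgTGATGTCAtctgcttctag
Lyzl6: ctggagagtgaTGATGTCAcagaaccagag
Sun5: tgctcctgcctTGATGTCAatggactgaac
Fam170b: agaacagacccgtgtcactgaTGACATCAc

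The complete CRE was found in Izumo1 and Spag4, and its first 6 letters alone before the RefSeq start in Acrbp, Lyzl4 and Tmem95. Lyzl4 and Tmem95 were lower in Ptbp1_cKO (log2 fold change -0.16 and -0.08) and are not shown. Izumo1, which holds the complete CRE, was also lower (-0.18) and is shown. Spag4 and Acrbp are shown because they had the highest fold changes of the list. The 3 matches shown were thus chosen partly by fold change. These 3 matches all precede the RefSeq start of the gene, which in Acrbp and Spag4 lies inside the GENCODE gene. They lie on the plus strand at chr7:45621704-45621733, chr2:156065165-156065194 and chr6:125049897-125049926.
Izumo1: ctgccaccctaTGACGTCAcgatgggatgg
Spag4: ctggctcccagTGACGTCAcgggcgctctg
Acrbp: cctcaccttctgTGACGTagcagccgcgcc

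Levels of the genes spanned a wide range and kept nearly the same order in both groups (Spearman's rho 0.99 across the 37 genes, which are not replicates). The most abundant was Spaca9, an acrosome-associated protein, at 566 FPKM in Ptbp1_cKO and 542 FPKM in control. The least abundant was Cd46, a complement regulator that in rodents sits on the inner acrosomal membrane, at 8.31 FPKM in Ptbp1_cKO and 8.55 FPKM in control. In both groups 13 genes were at 100 FPKM or more, and 4 were under 20 FPKM: Gopc, Dcst2, Tmem95 and Cd46. The authors combined the libraries of a group into 1 FPKM, a value per transcript length and sequencing depth, so no spread between libraries can be given. From the steps in which low FPKM values move, about 203 fragments in Ptbp1_cKO and 225 in control stood behind 1 FPKM over 1 kb, if a group value is the mean of its libraries. On the longest transcript of each gene, the smallest number of fragments was about 689 in Ptbp1_cKO and 822 in control, for Tmem95. Counting error alone would then be at most 5.17% of a ratio of groups.

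**Figure D1:**
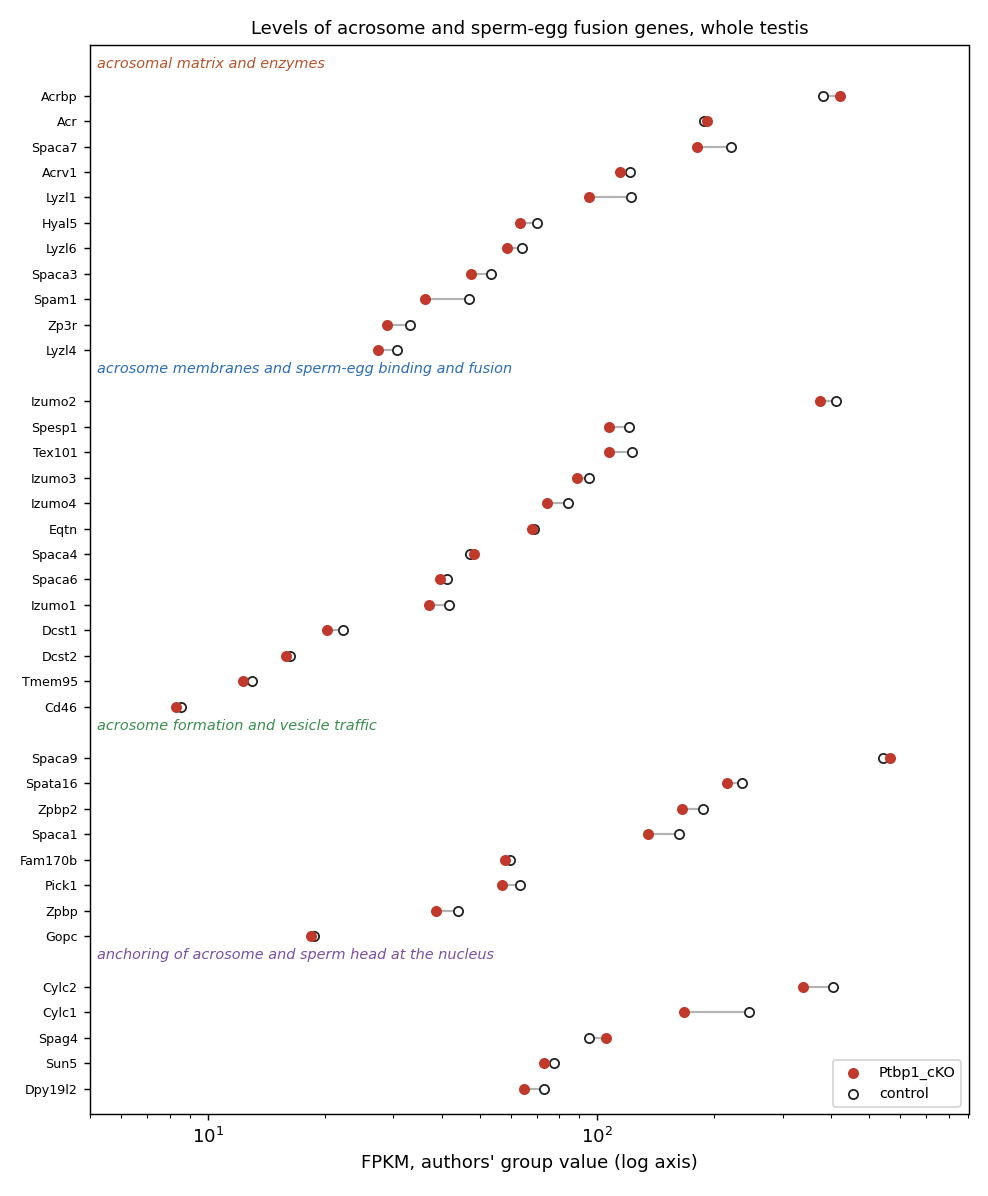
The FPKM of each gene (horizontal log axis) in Ptbp1_cKO (filled points) and control (open points), by role. A pair of points is joined by a line; the filled point lies left of the open point for 32 of the 37 genes, with the widest gap for Cylc1 at 167.4 FPKM in Ptbp1_cKO and 245.1 FPKM in control.

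Of the 37 genes, 32 had a lower and 5 a higher FPKM in Ptbp1_cKO than in control; after upper-quartile scaling 7 were higher, with Gopc and Eqtn, both close to 0, on the other side. Cylc1 alone passed Cuffdiff's threshold of q under 0.05, as lower; 0 were called higher. Across all tested genes 0.703% were called lower and 0.458% higher, and here the call was a single gene. At an unadjusted Cuffdiff p under 0.05, 4.59% of all tested genes were lower and 4.38% higher. Of the 8086 tested genes in the FPKM range of this list, 459 were lower and 272 higher at that p. In the list itself 6 genes were lower and 0 higher. These were Cylc1, Spam1, Lyzl1, Spaca7, Spaca1 and Cylc2, the same 6 whose log2 fold change was under -0.25. Most of the others differed little, with 26 genes between -0.2 and 0.

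The median log2 fold change of the 37 genes was -0.14, with the 25th and 75th percentiles at -0.18 and -0.04. Across all tested genes the median was 0.01, and 49.1% were lower. Abundant genes tended lower in general: among the 8086 tested genes in the same FPKM range (8.55 to 566 in the higher group), the median was -0.04 and 59.6% were lower, against 86.5% of the acrosome and fusion genes. The summed FPKM of the 37 genes was 4269.8 in Ptbp1_cKO and 4634 in control. Across genes, the level in control and the fold change had a Spearman's rho of -0.15, a description over 37 genes that share the same libraries. In whole testis, fewer cells of a type and less RNA per cell cannot be told apart.

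**Figure D2:**
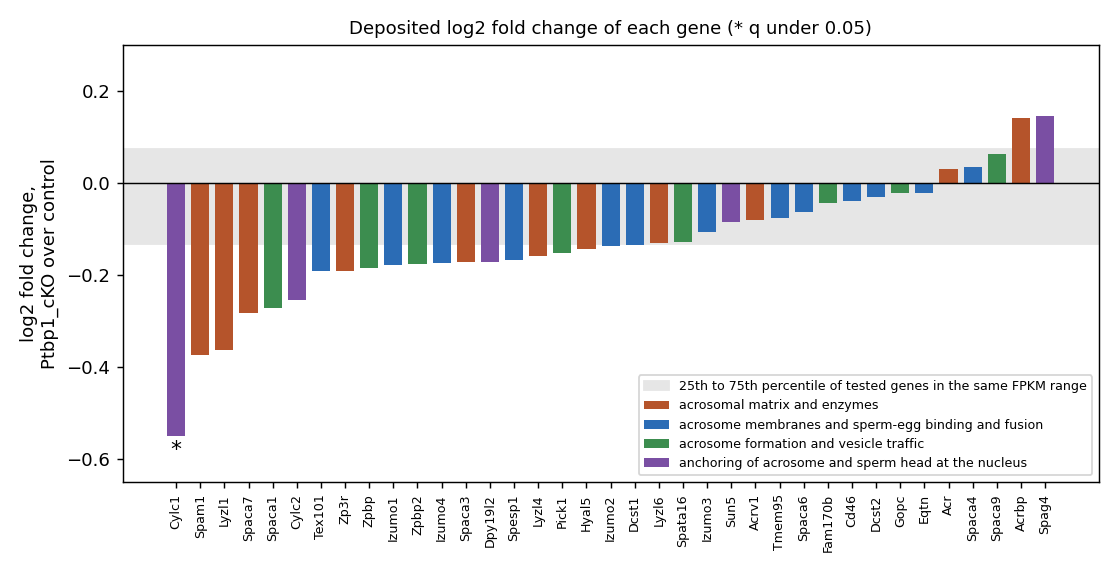
The deposited log2 fold change of each gene, Ptbp1_cKO over control, ordered from lowest to highest and coloured by role. The band spans the 25th to 75th percentile (-0.13 to 0.07) of tested genes in the same FPKM range; bars run from -0.55 for Cylc1, the only gene with an asterisk, to 0.15 for Spag4.

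The acrosomal matrix and its enzymes were represented by 11 genes, of which 9 were lower, 2 higher and 0 called, with a median log2 fold change of -0.16. Spam1, the sperm hyaluronidase that loosens the matrix around the egg, had 36.2 FPKM in Ptbp1_cKO and 47.0 FPKM in control. The log2 fold change was -0.37, and its q in the authors' deposited table was 0.0503, just outside the threshold. When genes under 1 FPKM in both groups were left out of the adjustment, its q became 0.041. Hyal5, a second hyaluronidase that starts 56.9 kb beyond the end of Spam1 on chromosome 6, differed less, at 63.6 FPKM in Ptbp1_cKO and 70.3 FPKM in control (log2 fold change -0.15, q = 0.889 in the authors' deposited table). The pair of neighbours thus had fold changes of unequal size; the difference between them was not tested.

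Lyzl1 (chromosome 18, 4165832 to 4182232), a lysozyme-like protein of the acrosome, stood at 95.1 FPKM in Ptbp1_cKO and 122.4 FPKM in control (log2 fold change -0.36, q = 0.0726 in the authors' deposited table). The other lysozyme-like genes were nearer to 0, with Lyzl6 at 58.8 FPKM in Ptbp1_cKO and 64.4 FPKM in control, Lyzl4 at 27.4 FPKM in Ptbp1_cKO and 30.6 FPKM in control, and Spaca3 at 47.5 FPKM in Ptbp1_cKO and 53.5 FPKM in control. Their log2 fold changes lay between -0.17 and -0.13. Lyzl4 overlaps an antisense gene, Lyzl4os, at 29.8 FPKM in Ptbp1_cKO and 30.8 FPKM in control, and the strand setting of the counting is not known, so its value is uncertain.

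Spaca7, a protein released from the acrosome when it opens, was at 181.1 FPKM in Ptbp1_cKO and 220.5 FPKM in control, a log2 fold change of -0.28 (q = 0.217 in the authors' deposited table). Acr and Acrbp had fold changes above 0, and neither passed the test. Acr, the protease acrosin, had 192.1 FPKM in Ptbp1_cKO and 188.1 FPKM in control. Acrbp, which binds its precursor and packs it into the vesicle, had 420.1 FPKM in Ptbp1_cKO and 381.1 FPKM in control (log2 fold change 0.14, q = 0.937 in the authors' deposited table). Acrv1, the matrix protein SP-10, stood at 114.6 FPKM in Ptbp1_cKO and 121.3 FPKM in control, and Zp3r, which in mouse binds the egg coat, at 29.0 FPKM in Ptbp1_cKO and 33.1 FPKM in control.

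Proteins of the acrosomal membranes and of binding and fusion accounted for 13 genes, with 12 lower, 1 higher, 0 called and 0 at an unadjusted p under 0.05. Their median log2 fold change was -0.11. Izumo1, the sperm protein that binds JUNO on the egg, was at 36.9 FPKM in Ptbp1_cKO and 41.8 FPKM in control (log2 fold change -0.18, q = 0.754 in the authors' deposited table). Its relatives lay close to it, with log2 fold changes of -0.14 for Izumo2, -0.11 for Izumo3 and -0.17 for Izumo4. They differed far more in level than in fold: Izumo2 had 373.2 FPKM in Ptbp1_cKO and 410.4 FPKM in control, Izumo3 88.8 FPKM in Ptbp1_cKO and 95.7 FPKM in control, and Izumo4 74.5 FPKM in Ptbp1_cKO and 84.1 FPKM in control. Izumo4 lies on chromosome 10, 837 kb from Ptbp1, the gene that is floxed in both groups.

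Spaca6, Tmem95, Dcst1 and Dcst2 encode other proteins that mouse sperm need for fusion. Spaca6 had 39.4 FPKM in Ptbp1_cKO and 41.2 FPKM in control, and Tmem95 12.3 FPKM in Ptbp1_cKO and 13.0 FPKM in control. Dcst1 had 20.2 FPKM in Ptbp1_cKO and 22.2 FPKM in control, and Dcst2 15.9 FPKM in Ptbp1_cKO and 16.3 FPKM in control. Dcst1 and Dcst2 overlap by 3279 bases on opposite strands of chromosome 3, so reads of that stretch are uncertain. With Izumo1, these 5 fusion genes were all lower, with log2 fold changes from -0.18 for Izumo1 to -0.03 for Dcst2. So were 12 of the 13 genes of this role group, of which 0 were called.

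Among genes of the equatorial segment and of sperm surface binding, log2 fold changes ran from -0.19 for Tex101 to 0.03 for Spaca4. Spesp1, a protein of the equatorial segment, had 107.5 FPKM in Ptbp1_cKO and 120.9 FPKM in control, and Eqtn, equatorin, 67.997 FPKM in Ptbp1_cKO and 69.0 FPKM in control. Tex101, a membrane-anchored protein that mouse sperm need for surface ADAM3, was at 107.4 FPKM in Ptbp1_cKO and 122.7 FPKM in control (q = 0.62 in the authors' deposited table). Spaca4, which acts in binding of mouse sperm to the egg coat, was the 1 higher gene, at 48.3 FPKM in Ptbp1_cKO and 47.1 FPKM in control. Its single exon on chromosome 7 overlaps Fam83e on the opposite strand, at 90.8 FPKM in Ptbp1_cKO and 92.0 FPKM in control.

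Of the 8 genes of acrosome formation with a row, 7 were lower, 1 was higher and 0 were called. The furthest from 0 was Spaca1, an inner acrosomal membrane protein without which mouse sperm heads are round. It had 134.9 FPKM in Ptbp1_cKO and 162.8 FPKM in control, a log2 fold change of -0.27 (p = 0.00845, q = 0.239 in the authors' deposited table). Zpbp and Zpbp2, paired matrix proteins that help compact the acrosome, had 38.6 and 165.7 FPKM in Ptbp1_cKO, against 43.9 and 187.4 FPKM in control, with nearly equal log2 fold changes of -0.19 and -0.18. Zpbp overlaps Spata48 on the opposite strand, at 99.9 FPKM in Ptbp1_cKO and 93.2 FPKM in control, so its value is uncertain. The vesicle-traffic genes Gopc and Pick1, whose loss in mouse also leaves round heads, had log2 fold changes of -0.02 and -0.15. Gopc stood at 18.5 FPKM in Ptbp1_cKO and 18.7 FPKM in control, and Pick1 at 57.1 FPKM in Ptbp1_cKO and 63.5 FPKM in control. Spata16, a Golgi protein, had 216.2 FPKM in Ptbp1_cKO and 236.4 FPKM in control, and Fam170b 58.0 FPKM in Ptbp1_cKO and 59.8 FPKM in control.

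The 5 genes that anchor the acrosome or the sperm head at the nucleus held both ends of the list. Cylc1 (ENSMUSG00000073001.3, chromosome X, 111110418 to 111125854), a basic protein of the perinuclear theca, fell to 167.4 FPKM in Ptbp1_cKO, against 245.1 FPKM in control, or 0.683 times the control value. The log2 fold change was -0.55, and its q in the authors' deposited table was 0.00848, a value shared by the 130 genes at the smallest p of 5e-05. With p from the deposited statistic under a normal distribution its q was 0.921, and the call was lost. Its relative Cylc2 on chromosome 4 stood at 337.4 FPKM in Ptbp1_cKO and 402.8 FPKM in control, a log2 fold change of -0.26 (q = 0.387 in the authors' deposited table). Spag4, also known as SUN4, had the highest fold change of the list, at 105.6 FPKM in Ptbp1_cKO and 95.4 FPKM in control (log2 fold change 0.15, q = 0.89 in the authors' deposited table). Sun5, which couples the sperm head to the tail, was at 73.2 FPKM in Ptbp1_cKO and 77.7 FPKM in control. Dpy19l2, which ties the acrosome to the inner nuclear membrane, was at 65.1 FPKM in Ptbp1_cKO and 73.3 FPKM in control, and holds the abundant Cypt4 on the opposite strand.

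Cylc1 was the 1 X-linked gene of the list; the other 36 lie on autosomes. X-linked genes were lower in general: of 221 tested X-linked genes in the same FPKM range, 165 were lower, 36 or 16.3% were called lower, and the median log2 fold change was -0.22. Cylc1 ranked 22nd from the lowest among them. Without it, 31 of 36 genes were lower, 0 were called, and the median remained -0.14. A search of all transcripts of the annotation found no near-identical copy of any of the 37 genes.

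**Figure D3:**
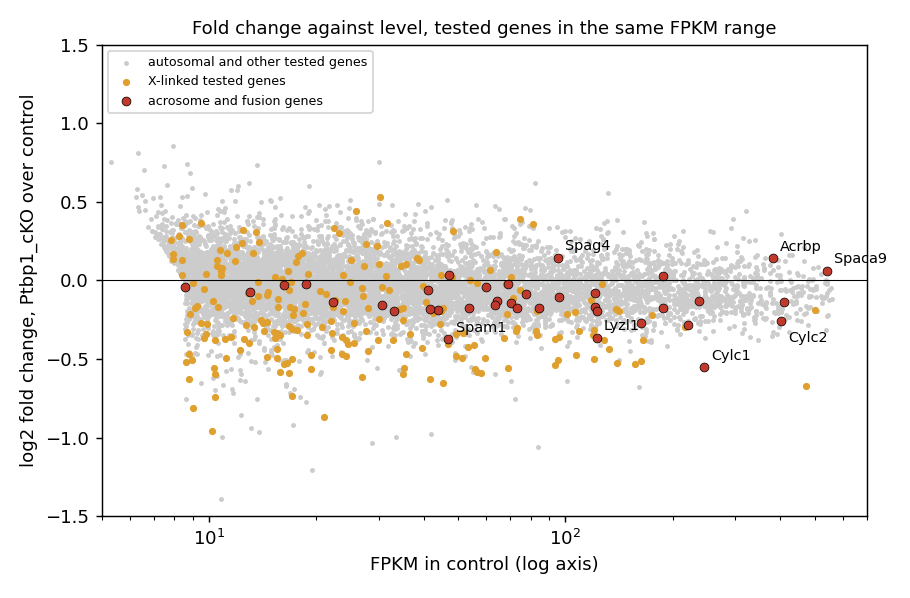
Log2 fold change, Ptbp1_cKO over control, against FPKM in control (log axis) for tested genes in the same FPKM range; 8 of them lie outside the axes. The acrosome and fusion genes (red) sit mostly just under 0, while Cylc1 at -0.55 lies among X-linked genes (orange), whose median was -0.22.

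Other genes of the acrosome and of fertilisation, from a list of 67 symbols with no symbol in common, lay closer to 0 as a group. Of 62 tested, 37 were lower and 25 higher, 1 was called lower and 0 higher, and the median log2 fold change was -0.01. The called gene was Actrt1, also of the perinuclear theca and also X-linked, which fell to 13.9 FPKM in Ptbp1_cKO, against 19.3 FPKM in control (log2 fold change -0.47, q = 0.0281 in the authors' deposited table). Like Cylc1 it lost its call with the normal p. Ccin, the theca protein calicin, was on the other side at 152.6 FPKM in Ptbp1_cKO and 127.1 FPKM in control (log2 fold change 0.26, p = 0.0093, q = 0.253 in the authors' deposited table). Galnt3, a Golgi glycosyltransferase, had 73.2 FPKM in Ptbp1_cKO and 87.8 FPKM in control. Of low genes in this list, Syne1 had 1.30 FPKM in Ptbp1_cKO and 0.906 FPKM in control, and Cplx1 1.01 FPKM in Ptbp1_cKO and 0.735 FPKM in control; neither was called. Agfg1, at 77.7 FPKM in Ptbp1_cKO and 76.1 FPKM in control, is the current symbol of the gene formerly called Hrb. The lists thus share that gene under different symbols.

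Cell type markers moved beside these genes, and their part in the differences was not tested. Of round spermatid markers 15 of 21 were lower (71.4%, median log2 fold change -0.10), and of spermatocyte markers 15 of 22 (68.2%, median -0.10). In either list 0 were called. Among all tested genes in the FPKM range of the acrosome and fusion genes, 59.6% were lower (median -0.04). The summed FPKM of the markers was 11985 in Ptbp1_cKO and 13595 in control for round spermatids, and 2039 in Ptbp1_cKO and 2181.5 in control for spermatocytes. Meig1, the most abundant round spermatid marker, had 6183 FPKM in Ptbp1_cKO and 7372 FPKM in control. It held most of the gap between the round spermatid sums. Ldhc, at 2030 FPKM in Ptbp1_cKO and 2333 FPKM in control, held most of the rest. Hspa2 of spermatocytes had 606.6 FPKM in Ptbp1_cKO and 636.7 FPKM in control. Markers of elongating spermatids leaned higher, with 14 of 17 tested higher, a median of 0.11 and 0 called. Their summed FPKM was 60915 in Ptbp1_cKO and 57469 in control. Without Prm1, at 16362 FPKM in Ptbp1_cKO and 13135 FPKM in control, the sums were 44553 in Ptbp1_cKO and 44333 in control. Prm2, Odf2 and Pabpc1 of that list had the status HIDATA, with no test, and Tnp1, the most abundant, had 18244 FPKM in Ptbp1_cKO and 19773 FPKM in control. Of 20 Sertoli cell markers 19 were higher, with a median of 0.21, a summed FPKM of 1958 in Ptbp1_cKO and 1643 in control, and 1 call, Clu, at 1199 FPKM in Ptbp1_cKO and 853.6 FPKM in control. Without Clu the sum was 759.3 in Ptbp1_cKO and 789.98 in control, the other direction, and the 1 lower marker was the abundant Ctsl, at 322.5 FPKM in Ptbp1_cKO and 396.6 FPKM in control. Of 12 epididymis markers 7 were tested, with 4 higher and 3 lower, and 2 were called higher. These were Crisp1 (5.90 FPKM in Ptbp1_cKO and 0.0482 FPKM in control) and Spink8 (4.75 FPKM in Ptbp1_cKO and 1.07 FPKM in control). Rnase9 (0.514 FPKM in Ptbp1_cKO and 0.0186 FPKM in control) and Adam7 (0.323 FPKM in Ptbp1_cKO and 0.00142 FPKM in control) were also higher, at low levels, and were not called. The summed FPKM of the tested markers was 261.2 in Ptbp1_cKO and 253.1 in control, nearly all of it Cst8 at 247.6 FPKM in Ptbp1_cKO and 249.6 FPKM in control, which testis also expresses. Lcn8 was listed at 0 in both groups, and Lcn5 and Defb12 at 0 in control.

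**Figure D4:**
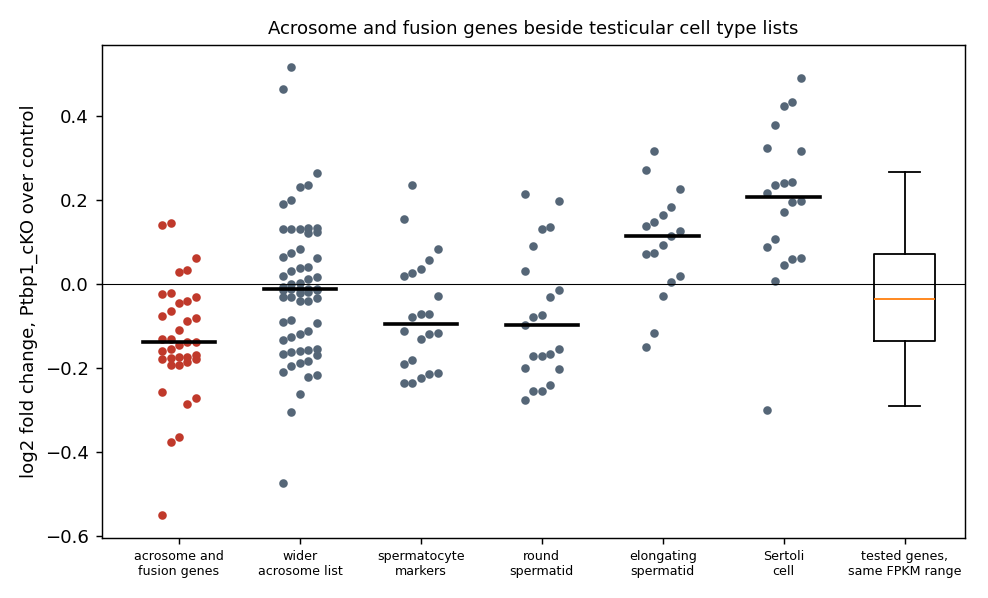
Log2 fold change, Ptbp1_cKO over control, of each tested gene of 6 lists, with the median as a bar, and of all tested genes in the same FPKM range as a box (25th to 75th percentile, whiskers at the 5th and 95th). The median was -0.14 for acrosome and fusion genes, -0.10 for round spermatid markers, 0.11 for elongating spermatid markers and 0.21 for Sertoli cell markers.

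In the promoter windows, letters were searched on both strands, and every match of the CRE also counts as a match of its core TGACGT. The CRE, TGACGTCA, was found in 2 of 32 genes (6.25%, against 3.03% of the 14657 tested genes with a window and 2.03% of all 27025 genes with one), and the core in 6 (18.8%, against 11.3% of tested and 8.37% of all genes), in Spesp1 only after the start. The CRE-like TGATGTCA was found in 7 (21.9%, against 4.13% of tested and 4.18% of all genes). It was added to the search after the promoters of Cylc1 and Spam1 had been read. Among the other 30 genes 5 held it, or 16.7%. These 5 include Hyal5, the neighbour of Spam1, whose bases around the match are nearly the same. This share is thus not independent of the promoters read. TATAAA occurred in 1 gene (3.12%, against 10.4% of tested and 15.7% of all genes), Spaca7, CCAAT in 11 (34.4%, against 42.3% and 41.1%) and CACGTG in 2 (6.25%, against 10.25% and 8.09%). Median GC content was 52.3% in the windows of these genes and 52.7% in all.

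All 7 genes with the CRE-like letters were lower, with a median log2 fold change of -0.15 and a range of -0.55 to -0.04. They include Cylc1 (-0.55) and Spam1 (-0.37), whose promoters were read before these letters were chosen. Their low values are thus part of how the letters were picked. The other 5 ran from -0.28 for Spaca7 to -0.04 for Fam170b. Of the 6 genes with the CRE or its core, 4 were lower and 2, Acrbp and Spag4, higher, with a median of -0.12. The 19 genes with none of these had a median of -0.14, with 17 lower. The medians thus lay close together, and a match shows only that the letters are there.

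**Figure D5:**
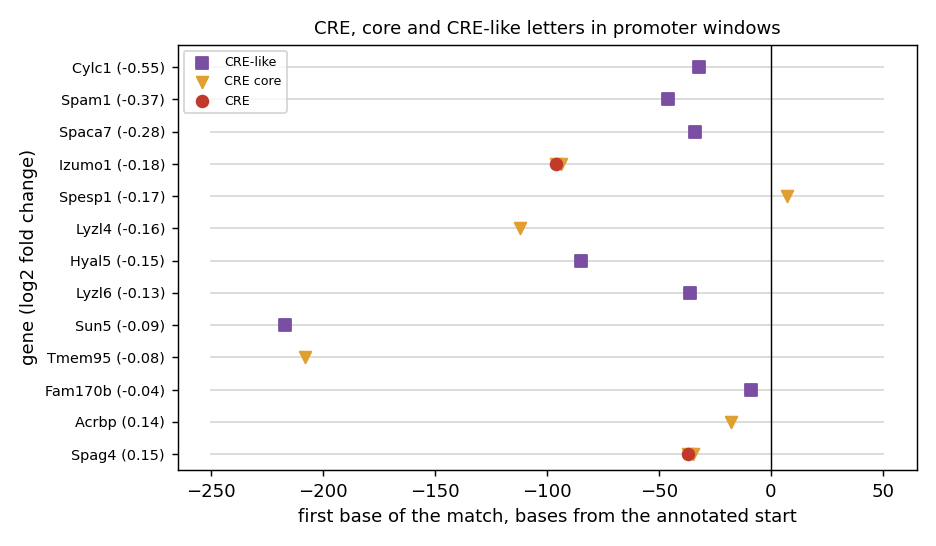
Place of each CRE, core and CRE-like match (first base, in bases from the annotated start at 0) in the promoter windows of 13 genes, ordered by log2 fold change in brackets. The CRE-like matches of Cylc1, Spaca7, Lyzl6 and Spam1 lie between -46 and -32, and that of Sun5 at -217.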

How the data were processed

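Polyadenylated RNA of whole testes was sequenced from stranded TruSeq libraries, per the labels' protocols, with 3 libraries in each of 2 groups assigned from the titles. Tools listed in the submitters' processing notes, with no role or setting, are STAR 2.6.1d, Trimmomatic 0.38, bcl2fastq 2.20, Cufflinks and Cuffdiff, and the build is mm10. Cuffdiff's version, normalisation and strand setting and the annotation release are not stated in the sources read here.

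The deposited Cuffdiff table was used as it stands. Per the file headers, a row gives a gene's FPKM in either group, a log2 fold change (Ptbp1_cKO over control), a signed test statistic, which is a score, and a p-value and q-value. The authors had combined the libraries of each group into 1 FPKM, so no SD, no value without a replicate and no paired fit could be computed. Recomputed from the FPKM values, the deposited log2 fold changes differed by at most 1.37e-05, and the deposited q-values equalled a Benjamini-Hochberg adjustment over all genes with status OK within 5.2e-07.

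A gene was called at q under 0.05 in Cuffdiff's test across all 22048 tested genes. The genes described, their role groups and the comparison lists were chosen with earlier results of these data known. Every listed gene is named, as are the called genes and the 5 largest changes at 1 FPKM or more of the wider list. The called and the most abundant genes of each marker list are named too. Prm1, Ldhc, Ctsl, Rnase9 and Adam7 were named after their values were seen. Medians use log2(FPKM + 1), over genes of at least 0.1 FPKM in a group, or the deposited log2 fold change, as stated. As alternatives, p was computed from the deposited statistic under a normal distribution, q was raised to 0.1, and pseudocount, filter and scaling were varied (Python 3.11.15, pandas 2.3.3, SciPy 1.17.1). The normal p and its adjustment, and the reading of fragment steps, were tested on simulated data.

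Positions are 1-based and come from the GENCODE M21 annotation of that build, which held 35 of the 37 genes with the deposited identifier version and the other 2, Cylc2 and Tmem95, with another one. Near-identical copies were sought with BLAST 2.17.0 at 95% identity over 80% of the longest transcript. Promoter windows, from 250 bases before to 50 after the start, were RefSeq's on GRCm38.p6. A comparison of protein sequences between related genes was planned and not run.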

Additional observations from a re-analysis of the deposited data

How the results depend on the processing

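The single call among the acrosome and fusion genes depended on the test. With p from the deposited statistic under a normal distribution 0 of them and 0 of the wider list were called, while 10 genes were lower and 9 higher among all tested. At q under 0.1 the acrosome and fusion genes gave 3 calls (Cylc1, Spam1 and Lyzl1), with genes of at least 1 FPKM 2 calls, and without the X-linked Cylc1 0 calls. The median difference of log2(FPKM + 1) was -0.14 and kept its direction under all 6 alternatives of pseudocount, filter, scaling and the omission of Cylc1, between -0.14 and -0.11. The number of genes higher in Ptbp1_cKO was 5, and 7 after upper-quartile scaling, when Gopc and Eqtn changed side. No paired analysis was possible because the deposited table holds 1 value per group and no value per library, and for the same reason no replicate could be left out. How Cuffdiff modelled the spread between libraries is not known.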

Other observations

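Genes for egg proteins that pair with the sperm proteins above had FPKM values at or near 0 in these testes, except Cd9. Izumo1r, the egg receptor of IZUMO1, had 0.00452 FPKM in Ptbp1_cKO and was listed at 0 in control, and Zp1, Zp2 and Astl were under 0.1 FPKM in both groups. Zp3, an egg coat protein, had 0.176 FPKM in Ptbp1_cKO and 0.158 FPKM in control. Cd9, a membrane protein that the egg needs for fusion and that other cells also express, had 11.7 FPKM in Ptbp1_cKO and 11.3 FPKM in control.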
